A study of Mus musculus with 9 samples.

Results

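The genes of the mitochondrial respiratory chain and the ATP synthase were followed on 9 MOE430A arrays of mouse mammary sphere cultures. Members were taken by gene symbol: Nduf for complex I, Sdha to Sdhd for complex II, Uqcr and Cyc1 for complex III, Cox4 to Cox8 for complex IV and Atp5 for complex V. Of 12393 genes that a probe set names alone, 85 met this rule, each represented by its probe set with the highest mean over all arrays. By symbol, complex I had 34 subunits, complex II 4, complex III 9, complex IV 16 and complex V 17, and the other 5 are Ndufaf genes, whose products assemble complex I without belonging to it. Ndufa4 was counted in complex I by its symbol, although its product is found with complex IV. The 3 tumorsphere cultures (arrays 1099A, 1100A and 1101A) were grown from independent mammary tumors of MMTV-Neu (N2O2) mice, in which the mouse mammary tumor virus promoter drives the Neu oncogene in mammary epithelium. The 3 preparations of mammospheres induced to differentiate (861A, 862A and 863A) were mammosphere cells that had been dissociated and plated on collagen in serum-containing medium for 7 days. The 3 mammosphere preparations (858A, 859A and 860A) came from glands of young adult virgin FVB/N females and, like the tumorspheres, were kept in stem cell medium and harvested after several weekly passages. No gene was deleted and no compound was given in any culture. The differentiated preparations differ from the mammospheres in adhesion, collagen and serum at once, and these cannot be told apart. Tumorspheres differ from the other cultures in genotype, in tissue of origin (tumor or normal gland) and in the run of their array codes, which likewise cannot be told apart. From the differentiated preparations they differ in adhesion, collagen and serum as well.

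Respiration passes electrons along 4 complexes in the inner mitochondrial membrane and uses the proton gradient that 3 of them build to drive the ATP synthase, counted as complex V. Complex I takes electrons from NADH, complex II from succinate, complex III hands them to cytochrome c and complex IV, cytochrome c oxidase, gives them to oxygen. Most subunits are encoded in the nucleus and imported, and a small set of central subunits is encoded in mitochondrial DNA. None of the mitochondrially encoded subunits had a probe set under its own symbol here, so every value below is a nuclear transcript. Many promoters of nuclear subunit genes carry sites for NRF1, GABP (also called NRF2) or YY1, which are known regulators of these genes.

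The start regions of 6 members are shown because they stand at the ends of the comparison between differentiated mammospheres and mammospheres: Ndufa12, Cox7a2, Ndufb8 and Atp5g3 were the 4 members that fell most, and Ndufv3 and Cox7a2l were the 2 that rose most. Each run covers 300 bases around the annotated transcription start in the RefSeq table of build GRCm38.p6, read 5′ to 3′ on the strand of the gene, with matches to the searched words in capitals. Ndufb8, at chr19:44555393-44555692 on the minus strand, holds the YY1 word AAGATGGC, and Atp5g3, at chr2:73911277-73911576 on the minus strand, holds the NRF1 word GCGCANGCG on its reverse strand. None of the searched words is in the regions of Ndufa12, at chr10:94198785-94199084 on the plus strand, Cox7a2, at chr9:79759804-79760103 on the minus strand, Ndufv3, at chr17:31519865-31520164 on the plus strand, or Cox7a2l, at chr17:83514284-83514583 on the minus strand.
Ndufa12: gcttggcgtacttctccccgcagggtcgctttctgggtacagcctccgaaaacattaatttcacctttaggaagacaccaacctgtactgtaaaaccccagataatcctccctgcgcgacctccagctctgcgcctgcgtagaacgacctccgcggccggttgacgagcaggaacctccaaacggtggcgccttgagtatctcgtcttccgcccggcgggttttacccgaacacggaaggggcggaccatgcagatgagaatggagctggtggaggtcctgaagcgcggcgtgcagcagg
Cox7a2: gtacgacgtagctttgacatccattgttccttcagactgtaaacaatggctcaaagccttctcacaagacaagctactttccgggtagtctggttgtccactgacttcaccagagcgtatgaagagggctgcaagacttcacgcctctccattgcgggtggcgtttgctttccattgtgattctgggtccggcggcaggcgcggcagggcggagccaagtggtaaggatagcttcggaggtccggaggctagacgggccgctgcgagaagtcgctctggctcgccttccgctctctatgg
Ndufb8: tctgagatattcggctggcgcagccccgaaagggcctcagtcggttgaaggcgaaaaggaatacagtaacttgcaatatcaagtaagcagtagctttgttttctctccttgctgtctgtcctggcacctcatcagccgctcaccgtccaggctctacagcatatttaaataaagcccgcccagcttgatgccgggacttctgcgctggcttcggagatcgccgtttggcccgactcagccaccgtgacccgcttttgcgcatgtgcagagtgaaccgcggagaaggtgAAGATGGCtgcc
Atp5g3: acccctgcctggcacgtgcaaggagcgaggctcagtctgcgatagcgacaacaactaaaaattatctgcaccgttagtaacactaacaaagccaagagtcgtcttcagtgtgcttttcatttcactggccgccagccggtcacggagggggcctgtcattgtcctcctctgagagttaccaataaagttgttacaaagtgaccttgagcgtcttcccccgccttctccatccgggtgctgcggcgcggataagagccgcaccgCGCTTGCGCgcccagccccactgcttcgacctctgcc
Ndufv3: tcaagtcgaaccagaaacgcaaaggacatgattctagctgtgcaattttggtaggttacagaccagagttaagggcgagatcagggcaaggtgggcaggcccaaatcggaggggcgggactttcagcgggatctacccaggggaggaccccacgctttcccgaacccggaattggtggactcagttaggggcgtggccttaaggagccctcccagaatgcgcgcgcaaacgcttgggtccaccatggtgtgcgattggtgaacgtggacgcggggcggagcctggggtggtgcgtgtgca
Cox7a2l: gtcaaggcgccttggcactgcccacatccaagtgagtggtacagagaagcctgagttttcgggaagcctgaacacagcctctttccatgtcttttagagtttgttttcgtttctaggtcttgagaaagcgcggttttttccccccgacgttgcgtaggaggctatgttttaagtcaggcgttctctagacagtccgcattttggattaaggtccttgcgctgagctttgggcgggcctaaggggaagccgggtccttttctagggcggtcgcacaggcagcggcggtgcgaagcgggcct

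Both strands were searched for GCGCANGCG, for AAGATGGC and for the GABP word CCGGAAG, none of which contains another. The table held a start region for 70 of the 85 members. The NRF1 word was present in 27.1% of these members, against 12.5% of the 9882 measured genes with a start region and 6.25% of all 32851 regions in the table. For the GABP word the shares were 25.7% of members, 16.4% of measured genes and 8.86% of all regions, and for the YY1 word 12.9%, 4.39% and 2.75%. Among the 33 members with a region that were lower after differentiation, 9 held the NRF1 word, 11 the GABP word and 5 the YY1 word. Among the 6 with a region that were higher, 1 held the NRF1 word and 0 the others. These are matches of letters and were not tested as binding sites.

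Values are log2 of the intensity plus 8.64, after quantile normalization, and differences between groups are differences of mean log2 values with their standard error (SE) and a limma p value adjusted by Benjamini-Hochberg over 22626 probe sets. A gene was called where the adjusted p was under 0.05. The members were mostly bright: 75 of 85 lay above the middle of all genes by mean intensity, the median member stood at the 92.7th percentile, and the assembly factors at a median of the 36.6th. The SE of a member's difference was 0.0453 to 0.128 (median 0.0808), so that many differences of 0.2 stood near the edge of what 3 arrays a group resolve. The median SD of a member within a group was 0.0890 in tumorspheres, 0.0736 in differentiated mammospheres and 0.0733 in mammospheres.

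Most transcripts of the respiratory chain had their lowest level in the differentiated preparations. The group mean was lowest in differentiated mammospheres for 62 members, in tumorspheres for 9 and in mammospheres for 14. Set against mammospheres, 38 members were lower and 7 higher after differentiation. That is 44.7% and 8.24% of the members, where 16.1% of all genes were called lower and 18.0% higher, and 22.2% and 23.5% of the genes brighter than the median gene. All differentiated arrays lay below all mammosphere arrays for 53 of the 85 members, or 62.4%, against 23.0% of all genes. The median difference over the members was −0.21, against 0.05 over all genes, and it came from moderate shifts, since 9 members differed by more than 0.5 in either direction. Median deviation of the members from their means over all arrays was −0.12 to −0.11 on the 3 arrays of differentiated cells, against 0.02 to 0.14 on those of mammospheres.

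The direction held and the split moved with the scaling of the arrays. On the values as deposited 58 members were lower and 4 higher after differentiation, with a median of −0.39, and with each array centred on its median 58 were lower and 3 higher, with a median of −0.43. Of all genes 18.7% were lower and 19.5% higher as deposited (median 0.07), and 21.0% and 13.3% with centring (median 0.02). The 38 members lower after quantile normalization were all among these 58 under both scalings. Proliferation moved in the same direction: 23 of 24 cell cycle genes were lower and 0 higher after differentiation (median −1.09), and their summed intensity was 2697 to 2865 in differentiated mammospheres, against 6512 to 6591 in mammospheres. Its part in the result was not tested. In bulk RNA, fewer cells of a type and less of a transcript per cell cannot be told apart.

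The labelled cell types were checked against marker lists. Luminal genes were brightest in tumorspheres: the 8 luminal markers summed to 4528 to 6913 in tumorspheres, against 674 to 863 in differentiated mammospheres and 610 to 693 in mammospheres. Cdh1, which encodes E-cadherin, averaged 5.96 in tumorspheres, 4.12 in differentiated mammospheres and 4.18 in mammospheres, so this defining epithelial marker was near the bottom of the scale in both cultures of normal gland. Sums of the 7 fibroblast markers, among them collagen genes, were high throughout, at 26816 to 32318 in tumorspheres, 34774 to 35358 in differentiated mammospheres and 31114 to 32866 in mammospheres. Single markers of this list split. After differentiation 3 were higher and 2 lower than in mammospheres, with differences from −1.82 to 1.04. In tumorspheres 2 were higher and 4 lower than in differentiated mammospheres, and 0 higher and 2 lower than in mammospheres. The 6 basal and myoepithelial markers summed to 697 to 802 in tumorspheres, 2532 to 3403 in differentiated mammospheres and 664 to 749 in mammospheres, with 4 of 6 higher after differentiation than in mammospheres. Most of that sum was Acta2, smooth muscle actin, at 11.36 after differentiation and 8.76 in mammospheres. Of 6 macrophage markers 3 were higher in tumorspheres than in mammospheres, with sums of 1007 to 1810 in tumorspheres, 560 to 938 in differentiated mammospheres and 489 to 555 in mammospheres. What these markers contribute to the differences of respiratory genes was not tested.

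**Figure D1:**
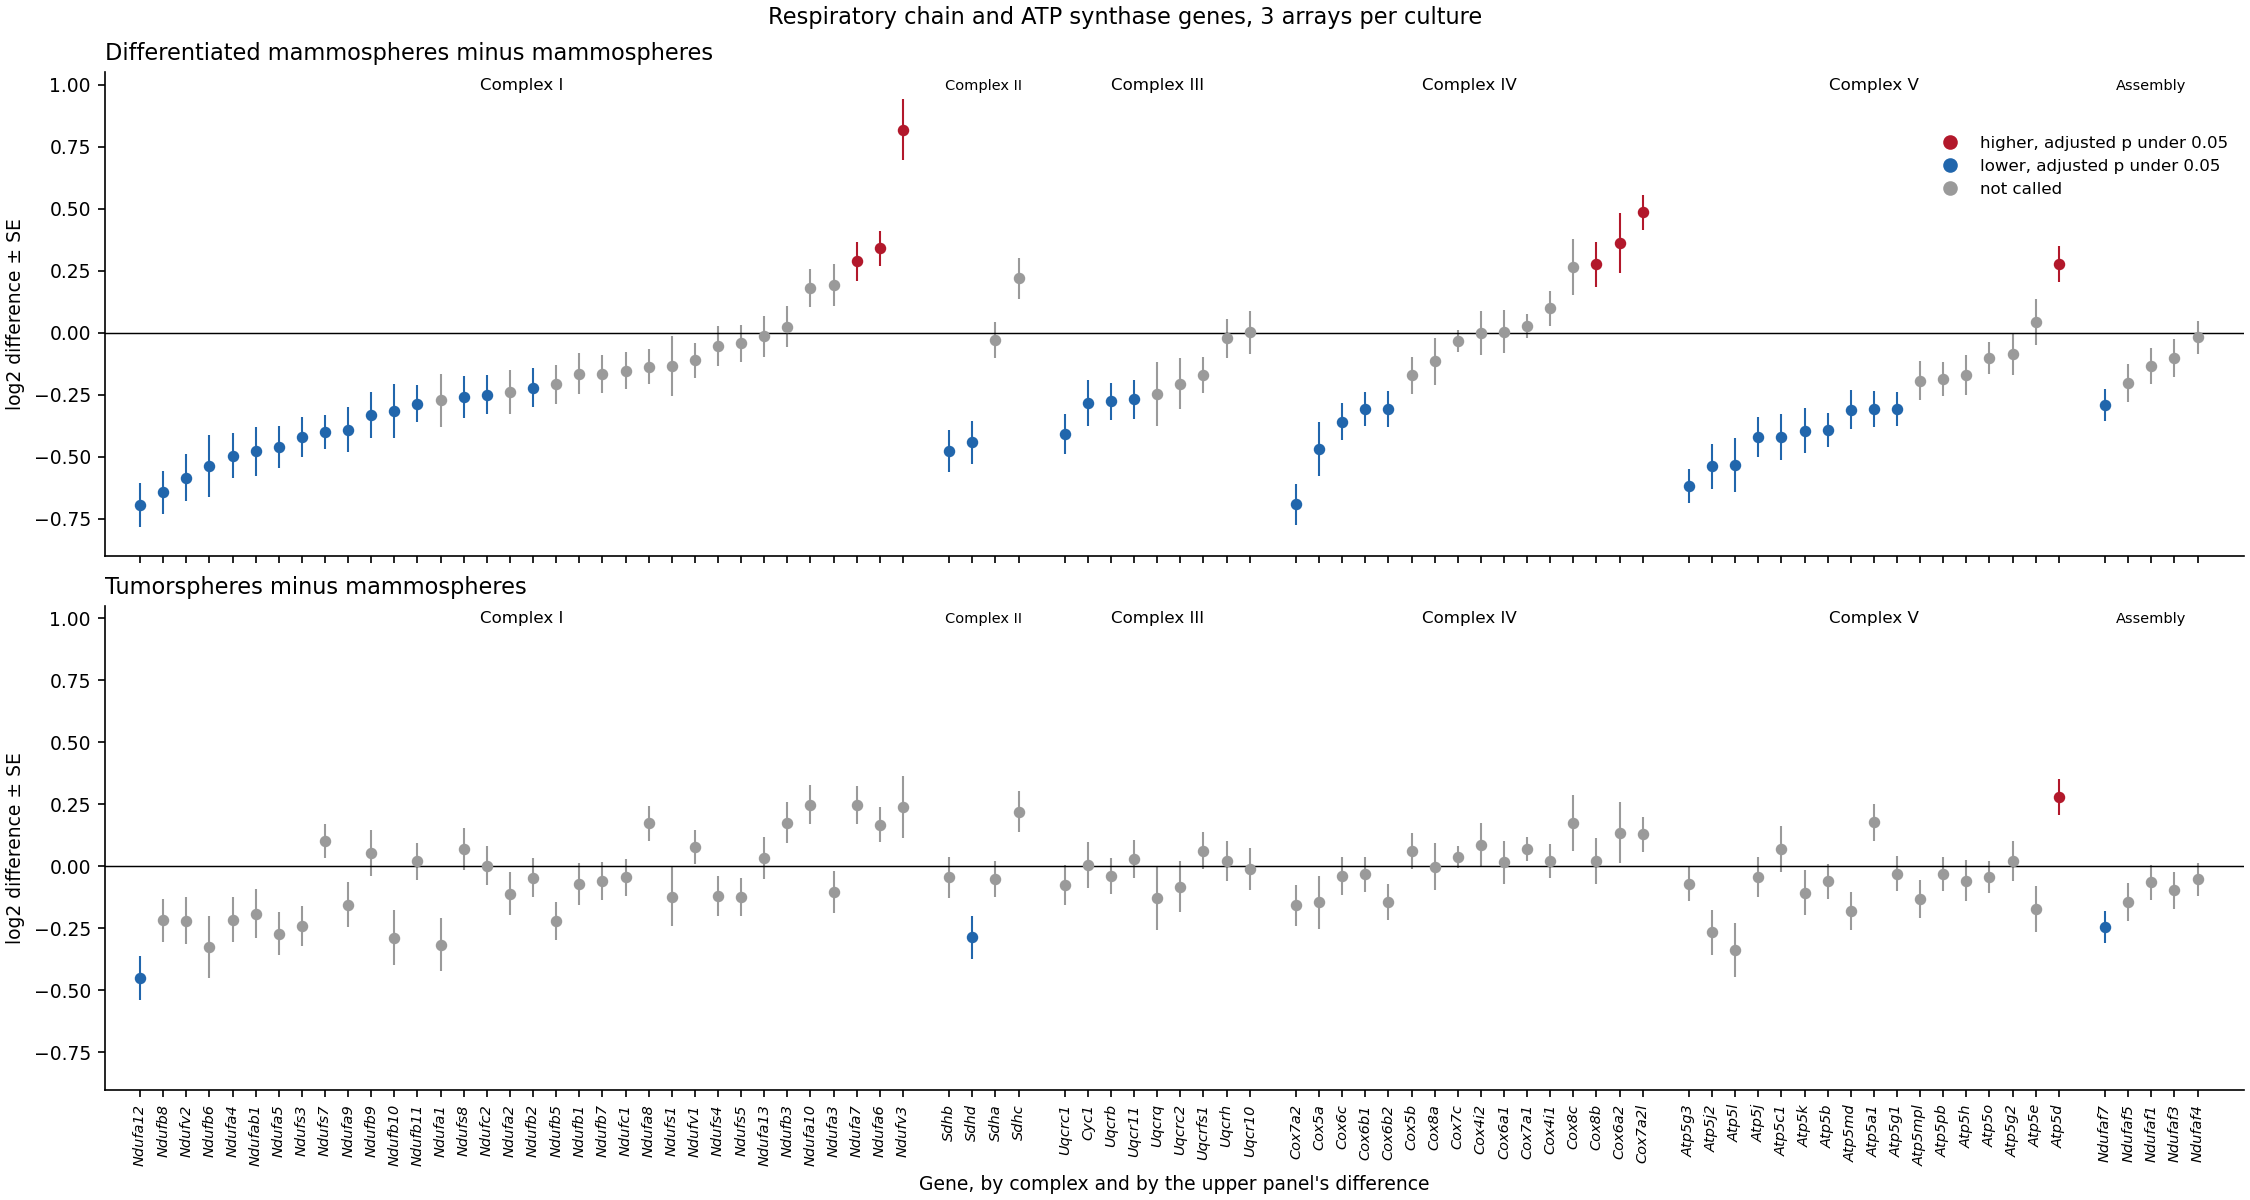
Log2 difference of each of the 85 members (point) with its SE (bar), grouped by complex and ordered within a complex by the upper panel; upper panel, differentiated mammospheres minus mammospheres; lower panel, tumorspheres minus mammospheres, 3 arrays a group. In the upper panel 38 points are called lower and 7 higher, with Ndufv3 standing apart at 0.82, and in the lower panel 3 are called lower and 1 higher.

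In complex I, 16 of 34 subunits were lower and 3 higher in differentiated mammospheres than in mammospheres, with a median of −0.23. The core subunits, among them those that carry the flavin and iron-sulfur centers, gave 4 lower and 0 higher of 6. The accessory subunits gave 12 lower and 3 higher of 28. Counted by module, 5 of 6 subunits of the quinone-binding part were lower and 1 higher, 7 of 18 in the membrane arm were lower and 0 higher, and in the NADH-binding part 2 were lower and 2 higher of 8. Ndufa4 (−0.50, adjusted p = 0.00136) and Ndufab1 (−0.48, adjusted p = 0.00332) were counted among the 34 but in none of these modules. The product of Ndufa4 is found with complex IV.

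Ndufa12, an accessory subunit beside the NADH-binding part, read 8.45, 8.52 and 8.64 on the arrays of differentiated mammospheres and 9.23, 9.24 and 9.23 on those of mammospheres. Every differentiated array lay below every mammosphere array, and the difference of −0.70 (SE 0.09, adjusted p = 0.000101) was the largest fall among the members. Of its other 3 probe sets 2 were also called lower, each by 0.53, and the dimmest differed by −0.06. Ndufb8, a membrane arm subunit often used as a marker of assembled complex I, had 8.77, 8.94 and 8.78 after differentiation, against 9.39, 9.43 and 9.59 in mammospheres (difference −0.64, SE 0.09, adjusted p = 0.000166). Ndufv2, a core subunit that holds an iron-sulfur cluster, had 8.53, 8.85 and 8.90 against 9.31, 9.38 and 9.35 in mammospheres (−0.59, SE 0.09, adjusted p = 0.000564). Array 861A was the lowest of the differentiated arrays for Ndufa12, Ndufb8 and Ndufv2, and leaving it out did not end any of these calls. Ndufs7, the core subunit next to the quinone site, had 8.09, 8.15 and 8.17 after differentiation and 8.47, 8.55 and 8.59 in mammospheres (−0.40, SE 0.07, adjusted p = 0.000842).

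Not all of complex I followed. Ndufv3, a small accessory subunit of the NADH-binding part, read 9.83, 9.54 and 9.66 in differentiated mammospheres, against 8.96, 8.81 and 8.80 in mammospheres. The groups were far apart, and the difference of 0.82 (SE 0.12, adjusted p = 0.000384) was the largest rise of all members, a level 76.4% higher on the scale of intensity plus 8.64. Ndufa6, an accessory subunit of the quinone-binding part, had 8.91, 8.92 and 8.79 after differentiation and 8.50, 8.55 and 8.55 in mammospheres (0.34, SE 0.07, adjusted p = 0.00311). Its call was lost on the values as deposited and with median centring, where the adjusted p reached 0.382. Ndufa7, another accessory subunit of the NADH-binding part, differed by 0.29 (SE 0.08, adjusted p = 0.0144) on its brightest probe set and by −0.28 (adjusted p = 0.0374) on its dimmest. Its remaining probe sets differed by 0.30 (adjusted p = 0.0117), 0.26 (adjusted p = 0.0205) and −0.01, the last not called. The direction of Ndufa7 is therefore uncertain.

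Complex II, succinate dehydrogenase, is the only complex built from nuclear genes alone and belongs also to the citric acid cycle. Of its 4 genes 2 were lower after differentiation. Sdhb, the iron-sulfur subunit, read 9.19, 8.98 and 9.09 in differentiated mammospheres and 9.45, 9.56 and 9.68 in mammospheres, without overlap (−0.48, SE 0.08, adjusted p = 0.00110). Sdhd, a membrane anchor, read 8.95, 8.98 and 9.05 against 9.39, 9.39 and 9.53 in mammospheres (−0.44, SE 0.09, adjusted p = 0.00216). Sdha, the flavoprotein that oxidizes succinate, had 9.03, 8.99 and 8.84 after differentiation and 8.98, 8.98 and 8.99 in mammospheres, so the groups overlapped (−0.03, SE 0.07, adjusted p = 0.784). For Sdhc, the other anchor, the result depended on the probe set. The brightest one, marked by Affymetrix as sharing probes with other transcripts, differed by 0.22 (adjusted p = 0.0583), and the other, assigned to transcripts of this gene alone, by −0.48 (adjusted p = 0.00308).

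In complex III, 4 of 9 genes were lower after differentiation and 0 higher, with a median of −0.25. Uqcrc1, one of the 2 large core proteins, read 8.81, 9.02 and 9.03 in differentiated mammospheres and 9.33, 9.46 and 9.31 in mammospheres (−0.41, SE 0.08, adjusted p = 0.00231). Cyc1, which encodes cytochrome c1, differed by −0.28 (SE 0.09, adjusted p = 0.0369). The small subunits Uqcrb and Uqcr11 were lower by 0.28 and 0.27, while Uqcr10 differed by 0.00 and Uqcrh by −0.02, neither of them called. Uqcrfs1, the Rieske iron-sulfur protein, differed by −0.17 (adjusted p = 0.0946). Uqcrq had a difference of −0.25 on its brightest probe set, not called, and of 0.29 on another, which was called.

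Complex IV had calls in both directions. Of its 16 genes 5 were lower and 3 higher after differentiation, or 31.2% and 18.8%, beside 16.1% and 18.0% of all genes, and the median was −0.02. The calls of 2 of the 3 higher genes, Cox6a2 and Cox8b, were lost with single arrays left out. Among the 9 widely expressed subunits 4 were lower and 0 higher. Cox7c, counted there without a call, had probe sets near the bottom of the scale, at means of 4.90 and 4.21, and was hardly measured. Cox5b was not called on its brightest probe set and was called lower on others, by 0.46 and 0.41. Among the 6 isoforms known for restricted expression 1 was lower and 2 higher, and the remaining gene, Cox7a2l, was higher. Cox7a2 read 10.23, 10.19 and 10.25 on the arrays of differentiated mammospheres, against 10.86, 10.91 and 10.99 in mammospheres (−0.69, SE 0.08, adjusted p = 6.53e-05). Cox7a2l, a relative of Cox7a2 known for joining complexes III and IV into supercomplexes, read 9.30, 9.34 and 9.34 after differentiation and 8.82, 8.81 and 8.89 in mammospheres (0.49, SE 0.07, adjusted p = 0.000285). These 2 related genes thus moved in opposite directions, each without overlap between groups, and both probe sets of Cox7a2 were called lower and all 3 of Cox7a2l higher.

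The catalytic core of cytochrome c oxidase is mitochondrially encoded, so the nuclear genes here are its supporting subunits. Cox4i1, the usual form of subunit 4, had 10.55, 10.57 and 10.56 in differentiated mammospheres, against 10.44, 10.49 and 10.47 in mammospheres (0.10, SE 0.07, adjusted p = 0.303), and its lung-enriched and hypoxia-inducible counterpart Cox4i2 differed by −0.00 (SE 0.09). The widely expressed Cox6a1 differed by 0.00 (SE 0.09) and Cox8a by −0.12 (SE 0.09), neither called. Their heart and skeletal muscle counterparts were higher, Cox6a2 by 0.36 (SE 0.12, adjusted p = 0.0383) and Cox8b by 0.27 (SE 0.09, adjusted p = 0.0379). Cox6a2 read 7.46, 7.12 and 7.02 after differentiation, against 6.75, 6.81 and 6.96 in mammospheres, and Cox8b 6.45, 6.18 and 6.05 against 5.93, 6.01 and 5.92 in mammospheres. For both the highest array was 861A, and without it neither was called, nor without each of several other single arrays. The third muscle form, Cox7a1, lay near the bottom of the scale, at 4.85, 4.85 and 4.80 after differentiation and 4.84, 4.78 and 4.81 in mammospheres. Of 7 muscle markers 1 was higher after differentiation, with sums of 319 to 347 in differentiated mammospheres and 305 to 324 in mammospheres. Of 3 brown adipocyte markers 0 were called by limma and 1 had an unadjusted p under 0.05, with sums of 176 to 202 in differentiated mammospheres and 164 to 170 in mammospheres. Both forms of subunit 6b were lower, Cox6b1 by 0.31 (adjusted p = 0.00539) and the testis form Cox6b2 by 0.31 (adjusted p = 0.00704). Cox8c, a form known from testis, differed by 0.26 (SE 0.11, adjusted p = 0.0916).

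**Figure D2:**
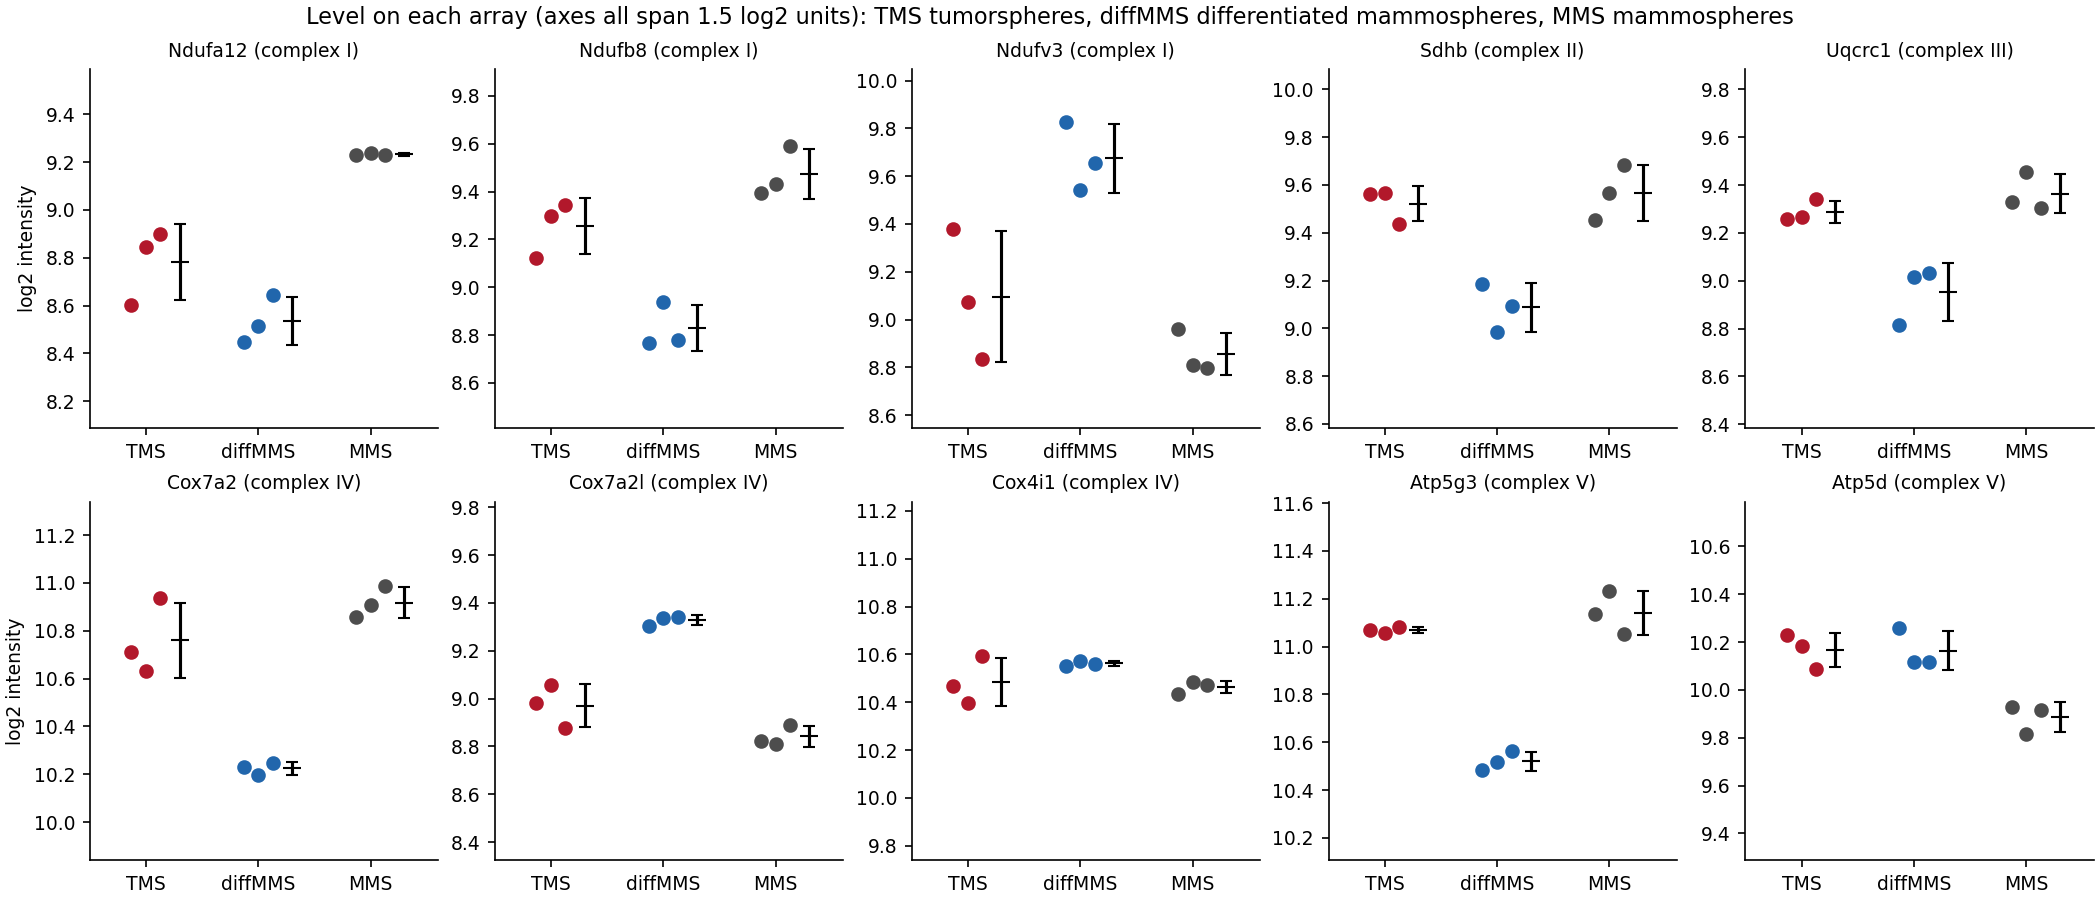
Log2 intensity of 10 members on every array, with tumorspheres (TMS, red), differentiated mammospheres (diffMMS, blue) and mammospheres (MMS, gray), 3 arrays each; the bar beside each group is the mean ± SD, and all vertical axes span the same range of 1.5 log2 units. The blue points lie below both other groups for Ndufb8, Sdhb, Uqcrc1, Cox7a2 and Atp5g3 and above both for Ndufv3 and Cox7a2l, while for Cox4i1 the groups lie close together.

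The ATP synthase had the largest share of lower genes, 10 of 17, with 1 higher and a median of −0.31. Of the 5 genes of the catalytic F1 head 3 were lower and 1 higher, of the 3 genes for the membrane ring of c subunits 2 were lower, of the 5 other membrane subunits 4, and of the 4 genes of the peripheral stalk 1. Atp5g3, one of 3 genes that encode the same mature c subunit, read 10.48, 10.52 and 10.56 in differentiated mammospheres, against 11.14, 11.23 and 11.05 in mammospheres (−0.62, SE 0.07, adjusted p = 3.14e-05). The other 2 differed less: Atp5g1 by −0.31 (SE 0.07, adjusted p = 0.00521) and Atp5g2 by −0.09 (SE 0.08, adjusted p = 0.440). Whether these 3 changes differ from each other was not tested. Atp5a1 and Atp5b, the alternating subunits of the catalytic head, were lower by 0.31 (adjusted p = 0.00756) and 0.39 (adjusted p = 0.00121). Atp5j2, a small membrane subunit, read 8.81, 9.06 and 8.94 after differentiation and 9.36, 9.46 and 9.62 in mammospheres (−0.54, SE 0.09, adjusted p = 0.000755). Atp5c1, the central rotor subunit, read 9.56, 9.31 and 9.53 against 9.73, 9.95 and 9.98 in mammospheres (−0.42, SE 0.09, adjusted p = 0.00437), on a probe set that matches several transcripts, while its other, dim probe set differed by −0.07 and was not called.

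Atp5d, which encodes the delta subunit at the foot of the rotor, went the other way, with 10.26, 10.12 and 10.12 in differentiated mammospheres and 9.93, 9.82 and 9.92 in mammospheres (0.28, SE 0.07, adjusted p = 0.0135). This rise was not independent of the scaling: with the arrays centred on the median the difference was −0.0136, and on the values as deposited the call was lost. Of the 5 assembly factors only Ndufaf7, which methylates a core subunit of complex I, was lower after differentiation, with 6.09, 6.13 and 6.04 against 6.37, 6.38 and 6.38 in mammospheres (−0.29, SE 0.06, adjusted p = 0.00459).

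After quantile normalization, few members were called between tumorspheres and mammospheres. Of the 85 members 1 was higher and 3 were lower in tumorspheres, or 1.18% and 3.53%, where 6.21% of all genes were higher and 7.11% lower, and 7.46% and 9.17% of the genes brighter than the median gene. The median difference was −0.04, against 0.00 over all genes, and no member differed by more than 0.45 in either direction. At an unadjusted p under 0.05 there were 22 members, or 25.9%, the same share as the 25.9% of all genes. Ndufa12 read 8.60, 8.84 and 8.90 in tumorspheres, against 9.23, 9.24 and 9.23 in mammospheres (−0.45, SE 0.09, adjusted p = 0.00554). Sdhd read 9.25, 8.97 and 9.23 in tumorspheres and 9.39, 9.39 and 9.53 in mammospheres (−0.29, SE 0.09, adjusted p = 0.0467). Ndufaf7 read 6.10, 6.12 and 6.18 in tumorspheres, below the 3 mammosphere arrays (−0.25, SE 0.06, adjusted p = 0.0239). The 1 higher member was Atp5d, at 10.23, 10.18 and 10.09 in tumorspheres against 9.93, 9.82 and 9.92 in mammospheres (0.28, SE 0.07, adjusted p = 0.0256). In complexes III and IV 0 of 9 and 0 of 16 members were called by limma, and 0 and 0 reached an unadjusted p under 0.05.

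None of these 4 calls held under every alternative setting, and Ndufa12 was also called lower on 1 other probe set, by 0.26, of the 3 it has. The count of lower members in tumorspheres was not stable. It was 13 without tumorsphere array 1101A, 10 on the values as deposited and 14 with median centring, and the higher count was then 4, 0 and 0. Of all genes 8.38% were lower and 6.5% higher as deposited, and 10.4% and 4.91% with centring. The median difference was −0.16 over the members and 0.02 over all genes as deposited, and −0.20 and −0.03 with centring. The count of lower members thus depended on 1 array and on the scaling, and a call that is missing does not show that 2 levels were equal. Proliferation differed here as well, with 20 of 24 cell cycle genes lower in tumorspheres and 0 higher (median −0.41), at a sum of 4834 to 5007 in tumorspheres against 6512 to 6591 in mammospheres.

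Set against differentiated mammospheres, 28 members were higher in tumorspheres and 3 lower, or 32.9% and 3.53%, where 12.3% of all genes were higher and 12.7% lower, and 17.0% and 15.9% of the genes brighter than the median gene. The median difference was 0.13, against −0.03 over all genes. This comparison uses the same arrays of differentiated cells as the first one and adds no independent evidence about them. Genotype, tissue of origin, array run, adhesion, collagen and serum all differ between these 2 groups and cannot be told apart. By complex, 9 of 34 subunits were higher and 2 lower in complex I, 1 of 4 was higher in complex II, 5 of 9 in complex III, 5 of 16 with 1 lower in complex IV and 8 of 17 in complex V. Cell cycle genes were higher for 23 of 24, and 7 of the 8 luminal markers were higher in tumorspheres; their part was not tested.

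Among the largest differences in this contrast were those of Atp5g3, Cox7a2 and Ndufs7. Atp5g3 had 11.07, 11.06 and 11.08 in tumorspheres, against 10.48, 10.52 and 10.56 in differentiated mammospheres (0.55, SE 0.07, adjusted p = 0.000104). Atp5a1 had 11.10, 11.14 and 11.20 in tumorspheres and 10.73, 10.61 and 10.64 in differentiated mammospheres (0.49, SE 0.07, adjusted p = 0.000486). Its other 2 probe sets differed by 0.08 and −0.10, neither called, and with the mean of all its probe sets the difference was 0.15 (adjusted p = 0.0696). Ndufs7 had 8.64, 8.61 and 8.68 against 8.09, 8.15 and 8.17 in differentiated mammospheres (0.51, SE 0.07, adjusted p = 0.000192). These tumorsphere arrays lay close together and well clear of the differentiated ones. Cox7a2 had 10.71, 10.63 and 10.94 in tumorspheres and 10.23, 10.19 and 10.25 in differentiated mammospheres (0.53, SE 0.08, adjusted p = 0.000581), and Sdhb had 9.56, 9.57 and 9.44 against 9.19, 8.98 and 9.09 in differentiated mammospheres (0.43, SE 0.08, adjusted p = 0.00274). The 3 lower members were Ndufv3, by 0.58 (adjusted p = 0.00521), Cox7a2l, by 0.36 (adjusted p = 0.00316), and Ndufa3, a membrane arm subunit of complex I, by 0.30 (adjusted p = 0.0241). The call of Ndufa3 was lost on the values as deposited, with median centring and without each of 861A, 862A, 1100A and 1101A, where the adjusted p reached 0.0995. For Ndufv3 the tumorspheres themselves were spread, with 9.38, 9.07 and 8.84.

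**Figure D3:**
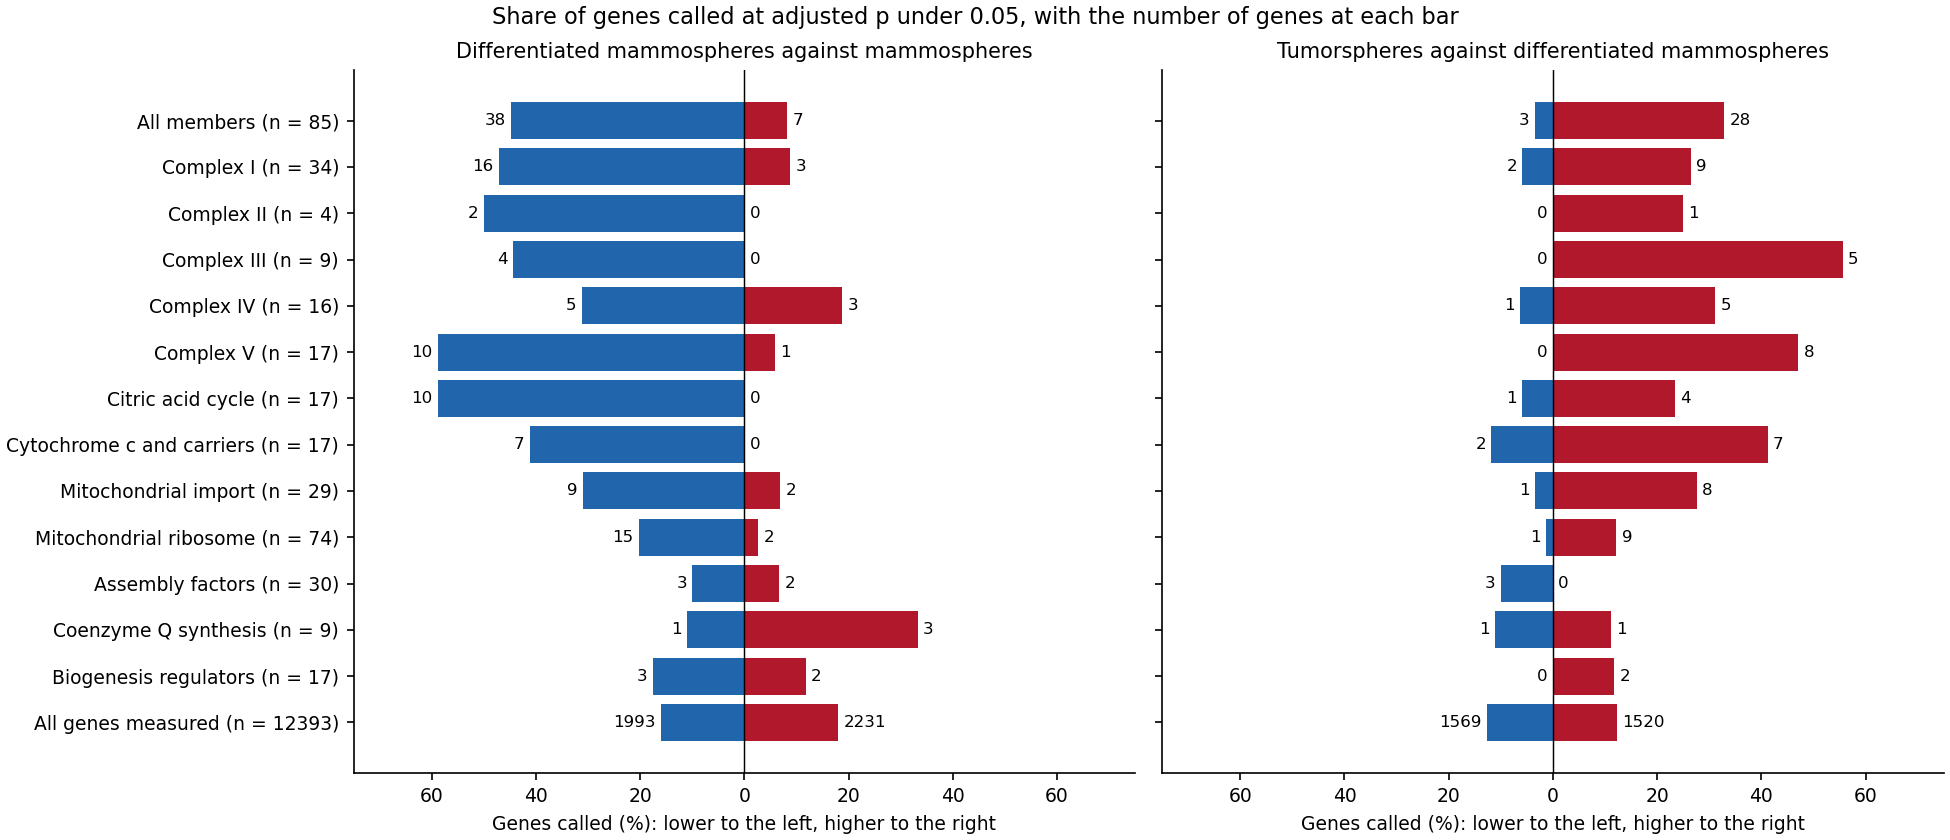
Percentage of genes called lower (left, blue) and higher (right, red) at an adjusted p under 0.05, with the number of genes at each bar, for the members, their complexes, related mitochondrial lists and all 12393 genes; left panel, differentiated mammospheres against mammospheres; right panel, tumorspheres against differentiated mammospheres. The members reach 44.7% lower in the left panel, against 16.1% of all genes, and 32.9% higher in the right panel, against 12.3%.

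Probe sets of the same member did not always give the same answer. The 85 members had 157 probe sets, and 45 members had several. Of these 45, 17 had probe sets with unequal calls between differentiated mammospheres and mammospheres, and for 3 genes, Ndufa7, Ndufab1 and Ndufs8, probe sets were called in opposite directions. Ndufab1, the mitochondrial acyl carrier protein, differed by −0.48 (adjusted p = 0.00332) on its brightest probe set, whose probes match several transcripts, by 0.29 (adjusted p = 0.0110) on a dimmer one and by −0.12 on the dimmest. Ndufs8, a core iron-sulfur subunit with 6 probe sets, differed by −0.26 (adjusted p = 0.0357) on the brightest, and its other probe sets ranged from −0.87 to 0.22.

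The 21 members that were called lower after differentiation and had several probe sets had 34 besides the brightest, of which 14 gave a larger fall and 20 a smaller fall or a rise. As examples of a larger fall, chosen after their values were seen, Uqcrb differed by −0.28 at a mean of 11.33 and by −0.82 at a mean of 7.45, and Atp5k, a small ATP synthase subunit, by −0.40 at 9.91 and by −0.83 at 7.92. In all, 8 members had a lower call after differentiation only on a probe set other than the brightest, and 3 had a higher call only there. Between tumorspheres and mammospheres this mattered more, since 7 members, namely Atp5pb, Cox5a, Cox6c, Ndufb5, Ndufb6, Ndufs4 and Uqcrb, were lower in tumorspheres on another probe set and not on the brightest. Cox5a, for example, differed by −0.14 (adjusted p = 0.436) on its brightest probe set, by −0.57 (adjusted p = 0.00538) on the second and by −0.64 on the dimmest.

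**Figure D4:**
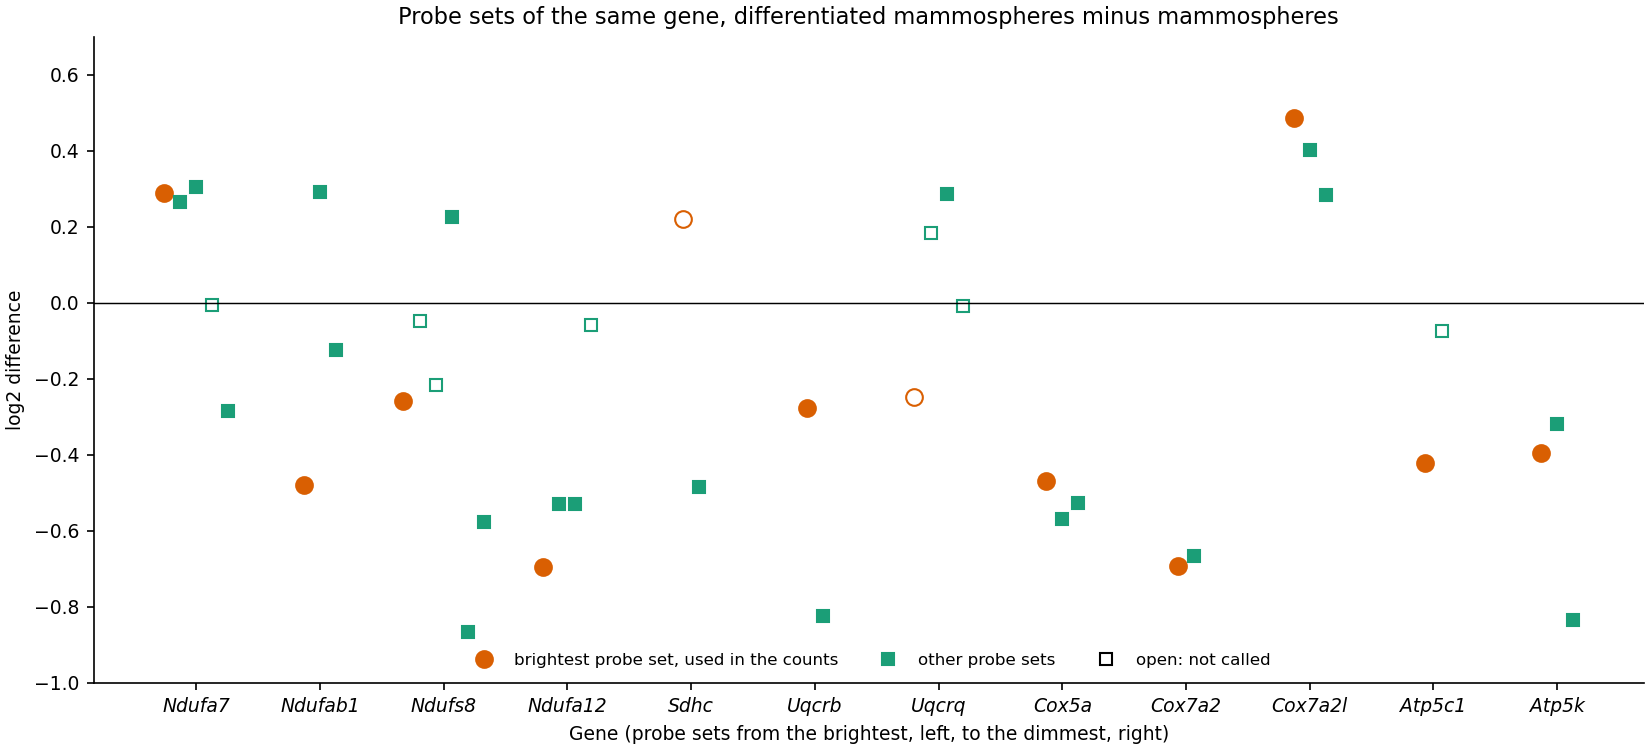
Log2 difference of differentiated mammospheres minus mammospheres for every probe set of 12 members chosen after their values were seen, from the brightest probe set (circle, used in the counts) to the dimmest; filled symbols are called at an adjusted p under 0.05. The probe sets of Cox7a2 lie together at −0.69 and −0.67 and those of Cox7a2l between 0.28 and 0.49, while those of Ndufa7, Ndufab1 and Ndufs8 lie on both sides of 0.

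Related mitochondrial genes were counted in the same comparison, and differences between the lists were not tested. Of 17 citric acid cycle genes 10, or 58.8%, were lower and 0 higher in differentiated mammospheres than in mammospheres (median −0.24). Of all genes 16.1% were lower and 18.0% higher. The largest fall was in Idh3a, the catalytic subunit of NAD-dependent isocitrate dehydrogenase, by 0.68 (adjusted p = 0.000652). Of 17 genes for cytochrome c, carriers and pores 7, or 41.2%, were lower and 0 higher (median −0.21). Vdac2, a pore of the outer membrane, averaged 10.18 after differentiation and 11.63 in mammospheres (−1.45, adjusted p = 3.61e-08). Slc25a5, an exporter of ATP from the matrix, averaged 10.14 and 11.30 in the same groups (−1.16), and Cycs, cytochrome c itself, 8.46 and 9.40 (−0.94). Atpif1, the inhibitor of the ATP synthase, averaged 7.81 after differentiation and 8.74 in mammospheres (−0.93).

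The mitochondrial ribosome gave 15 lower and 2 higher of 74 (median −0.10), that is 20.3% lower, against 16.1% of all genes. The import machinery gave 9 lower and 2 higher of 29, or 31.0% and 6.9%. Tomm70a was lower by 0.71 (adjusted p = 0.00106) and Hspa9 higher by 0.66 (adjusted p = 0.00103). Assembly factors of the complexes gave 3 lower and 2 higher of 30, both smaller shares than the 16.1% and 18.0% of all genes. Surf1, needed for cytochrome c oxidase, was higher by 0.41 (adjusted p = 0.00287) and the copper chaperone Cox17 lower by 0.48 (adjusted p = 0.0170). Of 9 genes of coenzyme Q synthesis 3, or 33.3%, were higher and 1 (11.1%), Coq7, lower by 0.86 (adjusted p = 0.000466). The largest of these rises was that of Coq4, by 0.30 (adjusted p = 0.0188). Of 11 redox defence genes 2 (18.2%) were lower and 1 (9.09%) higher. Cat was lower by 0.71 (adjusted p = 0.00363) and Prdx3 higher by 0.22 (adjusted p = 0.0315). Regulators of mitochondrial biogenesis gave 3 lower and 2 higher of 17, or 17.6% and 11.8%, against 16.1% and 18.0% of all genes. Nrf1 differed by −0.01, Gabpa by −0.12, Yy1 by −0.00 and Ppargc1a by −0.07, none of them called. Tfam, which packages mitochondrial DNA and helps transcribe it, averaged 6.17 after differentiation and 6.59 in mammospheres (−0.41, adjusted p = 0.0330). Ssbp1, the single-strand binding protein of that DNA, was lower by 0.62 (adjusted p = 0.00101). Polrmt, the RNA polymerase for that DNA, went the other way and was higher by 0.29 (adjusted p = 0.0169).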

How the data were processed

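The authors deposited 1 table of probe set intensity values on a linear scale, 1 column per MOE430A array, already summarised and scaled by a procedure not given in the sources used here. The study's methods name GeneSpring for the arrays and no test. The table holds 22690 rows, of which 64 are Affymetrix controls and were left out. By the platform annotation 20380 of the others carry 1 gene symbol, 691 several and 1555 none. Array medians ran from 83.8 to 88.3. Quartiles of the arrays differed by up to 0.134 (log2), more than the 0.1 allowed, and so log2(intensity + 8.64), where 8.64 is 10% of the median value, was quantile normalized. A limma model (version 3.58.1, R 4.3.3) with 1 mean per culture took in all 9 arrays (lmFit, eBayes with an intensity trend, 6 residual degrees of freedom), two-sided, with Benjamini-Hochberg adjustment over 22626 probe sets and 0.05 as the threshold. Dim probe sets were kept. Replicates are independent cultures or separate preparations by the study's description, and precision is limited by 3 arrays a group. The ratio of 3′ to 5′ control probe sets for Gapdh was 0.840 to 0.852 in tumorspheres, 0.824 to 0.912 in differentiated mammospheres and 0.867 to 0.900 in mammospheres. For beta-actin it was 1.18 to 1.29 in tumorspheres, 1.23 to 1.31 in differentiated mammospheres and 1.27 to 1.48 in mammospheres, with 1.48 on array 859A. The label of mammosphere array 858A carries a suffix R whose meaning is not stated. The fit was tested on simulated data of 22626 probe sets, with 100 changes of each size planted and all other probe sets flat. For tumorspheres against mammospheres it recovered 77% of changes of 0.5 and 99% of changes of 1 (log2), with 10 unchanged probe sets called. For differentiated mammospheres against mammospheres it recovered 73% and 95%, with 11 unchanged probe sets called. Far more genes were called in the real comparisons, so these rates need not hold there or for the members.

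The members, gene lists and tests were chosen with earlier results of these data known. Members are named by a rule that takes, per comparison, the 6 largest rises and falls among calls without overlap between groups. The rule adds per complex the lowest p, all of complex II, and the isoform genes of complex IV with their partners. Genes whose probe sets oppose each other are included too. Called extremes of the related lists are given only between differentiated mammospheres and mammospheres, and not for cell cycle genes. Further list genes were named outside this rule. Other members are named to complete a complex or a probe set comparison, after their values were seen. Alternatives were other scalings, pseudocounts, variance models, probe set choices, thresholds, array weights, only the groups compared, and each array left out. Start regions came from the RefSeq table of GRCm38.p6. Python 3.11.15 with matplotlib 3.10.9 drew the figures.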

Additional observations from a re-analysis of the deposited data

How the results depend on the processing

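No paired analysis was possible because the labels and columns give no replicate number that the groups share. The median difference of the members kept its sign under every alternative. Between differentiated mammospheres and mammospheres it was −0.43 with arrays centred on the median, −0.39 on the values as deposited and −0.28 with the probe set of the largest F, against −0.21 as reported. Between tumorspheres and differentiated mammospheres centring gave 0.20 and the deposited values 0.20, and between tumorspheres and mammospheres −0.20 and −0.16. Lower members after differentiation numbered 58 under both of these scalings, 29 at an adjusted p under 0.01 and 30 to 42 with 1 array left out. Higher members numbered 3 with centring, 4 as deposited, 3 at an adjusted p under 0.01 and 4 to 9 with 1 array left out. Members higher in tumorspheres than in differentiated mammospheres numbered 12 at an adjusted p under 0.01. Between tumorspheres and mammospheres the lower count was 1 at that threshold, 13 with array weights, 14 with centring, 10 with the mean of all probe sets, 10 with the largest F, 10 as deposited, 1 without probe sets that match several transcripts, and 1 to 13 with 1 array left out (13 without tumorsphere array 1101A). The higher count there was 0 at the stricter threshold, 6 with array weights, 0 with centring, 0 as deposited, 3 without the intensity trend and 0 to 4 with 1 array left out. The array weights were lowest for 1101A, 861A and 1099A (0.408, 0.434 and 0.573).

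Signs turned for single genes with the choice of probe set. Without probe sets that match several transcripts, Atp5c1 between tumorspheres and differentiated mammospheres was −0.0533, Ndufa12 between tumorspheres and mammospheres 0.0137, Ndufab1 0.29 after differentiation and 0.29 in tumorspheres against mammospheres, Ndufs8 0.22 after differentiation and −0.18 in tumorspheres against differentiated mammospheres, and Sdhc −0.48 after differentiation. With the largest F, Sdhc was −0.48, Uqcrq 0.29 and Ndufa7 −0.28 after differentiation, and Ndufa7 0.40 in tumorspheres against differentiated mammospheres. With centring Atp5d was −0.0136 after differentiation. Of the calls of named members, 15 of 24 after differentiation, 10 of 15 in tumorspheres against differentiated mammospheres and 0 of 4 in tumorspheres against mammospheres held under every alternative. The cause of these changes was not tested.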
